A study of Mus musculus with 16 samples.

Results

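The genes followed were 10 of the 31053 gene rows in each matrix: Mdm2, Ppm1d, Trp53inp1, Sesn1, Sesn2, Plk2, Btg2, Gadd45a, Rrm2b and Zmat3. They were chosen by name as targets of the transcription factor p53 that feed back on p53 or help a stressed cell adapt. Earlier results of these data were known when they were chosen. All 10 were found, each as 1 row, and are annotated as protein-coding, among them Mdm2 at chr10:117688875-117710758, Trp53inp1 at chr4:11156441-11174379 and Zmat3 at chr3:32334792-32365665 (GRCm38.p6). Their UMIs (unique molecular identifiers, which count captured RNA molecules) were summed in each cell class of each library.

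After DNA damage the p53 protein is stabilised and switches on a set of genes, some of which then act back on p53 itself. Mdm2 encodes the ubiquitin ligase that marks p53 for destruction, and Ppm1d encodes the phosphatase Wip1, which removes activating phosphates from p53 and its kinases. Zmat3 encodes an RNA-binding zinc finger protein, Trp53inp1 a nuclear and autophagy protein that promotes p53 activity, and Btg2 an antiproliferative cofactor of messenger RNA decay. Sesn1 and Sesn2 encode sestrins, which restrain mTORC1 signalling, Plk2 a polo-like kinase, Gadd45a a small stress protein and Rrm2b the p53-inducible subunit of ribonucleotide reductase that supplies nucleotides for repair in resting cells.

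The libraries came from C57BL/6J mice carrying a subcutaneous tumor of the colon carcinoma line MC38 or of the pancreatic line Panc02-SIY. Tumors were left untreated or given a single 12 Gy dose of CT-guided radiation, and were harvested 24 h later. Live CD45+ cells (leukocytes) were enriched, sorted and put through droplet single-cell RNA sequencing. This gave 4 groups of 4 libraries: untreated MC38, irradiated MC38, untreated Panc02-SIY and irradiated Panc02-SIY. All 4 groups share the mouse strain, the flank site and the sort. Each tumor type was 1 transplanted line, so tumor type and line are the same thing here. The GEO text gives 4 animals per group, and p-values measure the spread between these 4 libraries.

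Many MC38 barcodes occurred in more than 1 library. Of 2632 distinct MC38 barcodes, 1239 were in more than 1 MC38 library and 769 in all 8, against 187 of 18136 for Panc02-SIY. Each barcode was kept only in the library of its tumor line with most of its UMIs, which removed 23.3% of the MC38 UMIs and 0.445% of the Panc02-SIY UMIs. That left 20768 barcodes and between 1385711 and 43708746 UMIs per library, and 14396 barcodes were assigned to 7 classes by marker genes. Values for MC38 are also given with all called barcodes kept where that changed a call. B cells, and in MC38 tumors T cells, NK cells, neutrophils and conventional dendritic cells (cDCs), were too few in at least 1 library for a test.

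Sequences upstream of the genes are shown because the members are read as p53 targets. In the RefSeq promoter table (build GRCm38.p6, 250 bases before to 50 after each start) 7 of the 10 members had an entry, with 8 starts. The 10-base consensus for a single arm of the p53 response element, which reads the same on both strands, was found upstream of 4 of them. Each stretch below is written 5′ to 3′ on the gene's strand with the match in capitals.
Mdm2, chr10:117710905-117710994, minus strand, match 186 bases before the start: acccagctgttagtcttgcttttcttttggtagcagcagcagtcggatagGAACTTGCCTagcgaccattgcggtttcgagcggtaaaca
Ppm1d, chr11:85311072-85311161, plus strand, match 132 bases before the start: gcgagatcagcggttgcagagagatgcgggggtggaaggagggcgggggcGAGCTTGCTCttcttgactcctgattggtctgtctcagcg
Sesn1, at the second of its 2 starts, chr10:41887216-41887305, plus strand, match 173 bases before the start: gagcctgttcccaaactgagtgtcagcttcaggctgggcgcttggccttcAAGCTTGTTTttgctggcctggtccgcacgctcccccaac
Gadd45a, chr6:67037408-67037497, minus strand, match 40 bases before the start: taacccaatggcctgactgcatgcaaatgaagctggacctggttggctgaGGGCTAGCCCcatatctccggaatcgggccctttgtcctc
The same match occurred in 2745 of 32851 promoters of that length, 8.36%. The other 4 starts, of Btg2, Sesn2, Plk2 and the first Sesn1 start, held no match in this window. Of the 4 genes with a match, Mdm2 and Ppm1d rose after radiation in at least 1 class and Sesn1 and Gadd45a in no class, as described next. The single Ppm1d call did not hold in 18 of 31 alternatives. Btg2, Sesn2 and Plk2, without a match in this window, each rose in 3 comparisons of irradiated with untreated cells of a class. A link between match and response was not tested.

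Macrophages were the most numerous class in MC38 tumors (586 barcodes untreated and 413 irradiated), and Panc02-SIY tumors gave 1541 and 909. They were barcodes with at least 3 of the markers C1qa, C1qb, C1qc, Ms4a7, Mrc1 and Trem2. In MC38 tumors 7 of the 10 genes rose after radiation and none fell, and in Panc02-SIY tumors 6 rose and none fell. The test was edgeR's quasi-likelihood test on the summed UMIs, and a gene counted as called when its p, adjusted over all genes by Benjamini-Hochberg, was under 0.1 and it changed by more than 1.3-fold. Of all 11473 genes tested in macrophages, 9.59% were called in MC38 and 1.84% in Panc02-SIY, or 4.38% and 1.03% counting only genes that rose. The median log2 fold change of the 10 genes was 1.05 in MC38 and 0.82 in Panc02-SIY, against -0.01 and 0.01 over all genes tested. The levels below are in CPM, UMIs per 1000000 UMIs of the class in that library after TMM scaling. In classes that were not tested, TMM scaling was left out. The share of all genes whose groups do not overlap is not given here. Separation of the groups is therefore a description of each gene and not a result about the members.

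Among the feedback genes, Mdm2 stood in the untreated MC38 macrophages at 34.5, 54.0, 47.7 and 43.0 CPM in replicates 1 to 4. In the irradiated MC38 libraries it stood at 176, 181, 151 and 131 CPM. All 4 irradiated libraries lay above all 4 untreated ones, and the difference was 3.55-fold (log2 1.83 ± 0.17 SE, edgeR adjusted p = 2.14e-07). In Panc02-SIY macrophages Mdm2 was at 58.2, 54.6, 37.5 and 55.5 CPM untreated and 52.9, 109, 101 and 126 CPM irradiated. Irradiated replicate 1 lay within the untreated range, the other 3 above it, and the difference was 2.03-fold (log2 1.02 ± 0.19, adjusted p = 0.00838). This Panc02-SIY call was lost in 1 of 31 alternatives, thinning each library to the lowest class total. Ppm1d, the other feedback gene, was at 7.46 to 9.02 CPM in untreated and 7.23, 14.7, 14.8 and 12.9 CPM in irradiated MC38 macrophages. It passed the test narrowly (log2 0.64 ± 0.22, adjusted p = 0.0789). The call did not hold in 18 of 31 alternatives, among them with all called barcodes kept (log2 0.45, adjusted p = 0.233) or without any one of untreated MC38 replicates 1 to 4 and irradiated replicates 2 to 4 (log2 0.56 to 0.71, adjusted p 0.116 to 0.226). In Panc02-SIY macrophages Ppm1d was not called (log2 0.21 ± 0.24), with 14.1, 15.04, 13.6 and 13.7 CPM irradiated against 15.5, 11.7, 11.46 and 12.1 CPM untreated.

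Trp53inp1 and Zmat3 had the largest fitted fold changes of the 10 in MC38 macrophages. In Panc02-SIY macrophages Trp53inp1 had the largest, while the values for Zmat3 and Sesn2 lay within 1 SE of each other. Trp53inp1 was at 6.83, 5.40, 8.26 and 5.25 CPM in untreated MC38 macrophages and at 23.1, 62.0, 47.2 and 39.1 CPM after radiation. The groups did not overlap and differed 6.81-fold (log2 2.77 ± 0.23, adjusted p = 2.03e-08). In Panc02-SIY macrophages it was at 27.2, 12.4, 11.5 and 13.0 CPM untreated and 52.9, 68.2, 56.7 and 47.9 CPM irradiated, again without overlap (4.16-fold, log2 2.06 ± 0.25, adjusted p = 2.74e-05). Zmat3 was at 5.20, 4.91, 6.66 and 6.56 CPM in untreated and 30.4, 51.2, 46.7 and 30.5 CPM in irradiated MC38 macrophages (6.58-fold, log2 2.72 ± 0.21, adjusted p = 6.30e-09). In Panc02-SIY macrophages Zmat3 stood at 7.76, 11.1, 12.5 and 8.80 CPM untreated and 24.7, 32.1, 32.7 and 25.6 CPM irradiated. Every irradiated library exceeded every untreated one in both tumors, and the Panc02-SIY difference was 2.90-fold (log2 1.54 ± 0.24, adjusted p = 0.00167). The Panc02-SIY call of Zmat3 was lost in 1 of 30 alternatives, again thinning.

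The sestrin Sesn2 rose in macrophages of both tumors while its relative Sesn1 was not called in either. Sesn2 was at 5.53, 7.37, 8.26 and 7.87 CPM in untreated and 20.2, 31.0, 28.1 and 22.3 CPM in irradiated MC38 macrophages (3.47-fold, log2 1.79 ± 0.24, adjusted p = 2.65e-05). In Panc02-SIY macrophages it was at 0, 11.7, 12.5 and 9.61 CPM untreated and 38.8, 23.1, 28.0 and 22.7 CPM irradiated (log2 1.34 ± 0.27, adjusted p = 0.0123). The groups did not overlap in either tumor. The 0 belonged to untreated replicate 1, with 244279 macrophage UMIs, where a count of 0 allows a level of up to 12.3 CPM by counting error alone. The MC38 call was lost in 1 of 31 alternatives. The Panc02-SIY call was lost in 5 of 30 alternatives. They were leaving out untreated Panc02-SIY replicate 4 (log2 1.26, adjusted p = 0.103), fitting only the 2 groups compared (1.37, adjusted p = 0.114), gates of 2 or 4 markers (1.16 and 1.21, adjusted p = 0.127 and 0.118) and thinning each library to the lowest class total (1.08, adjusted p = 0.609). Sesn1 was at 18.8 ± 1.84 CPM (mean ± SD, n = 4) in untreated and 15.2 ± 5.45 CPM in irradiated MC38 macrophages, and at 27.8 ± 5.70 and 22.2 ± 4.95 CPM in Panc02-SIY. Its log2 differences were -0.26 ± 0.22 (95% interval -0.68 to 0.16) and -0.26 ± 0.23 (-0.72 to 0.20).

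Plk2 and Btg2 rose in macrophages of both tumors. Plk2 was at 42.3, 52.6, 67.4 and 50.5 CPM in untreated and 202, 116, 110 and 129 CPM in irradiated MC38 macrophages, without overlap (2.55-fold, log2 1.35 ± 0.19, adjusted p = 0.000105). In Panc02-SIY it was at 7.76, 19.5, 16.7 and 19.9 CPM untreated and 21.2, 58.1, 37.5 and 44.9 CPM irradiated, also without overlap (2.36-fold, log2 1.24 ± 0.25, adjusted p = 0.0175). Btg2 was at 729, 616, 705 and 779 CPM in untreated and 1160, 1209, 1291 and 1121 CPM in irradiated MC38 macrophages (1.69-fold, log2 0.76 ± 0.12, adjusted p = 0.000188). In Panc02-SIY the untreated values of 303, 292, 333 and 313 CPM compared with 360, 455, 527 and 547 CPM after radiation (1.54-fold, log2 0.62 ± 0.12, adjusted p = 0.0109). No irradiated library fell into the untreated range of either tumor. In Panc02-SIY the Plk2 call was lost in 1 and the Btg2 call in 2 of 31 alternatives, the latter including thinning. The MC38 Btg2 call was lost in 1 of 31.

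Gadd45a and Rrm2b were not called in macrophages of either tumor. Gadd45a was at 7.63 ± 0.342 CPM untreated and 7.73 ± 2.88 CPM irradiated in MC38, and at 13.7 ± 5.31 and 11.3 ± 3.65 CPM in Panc02-SIY (n = 4 each). Its log2 differences were 0.05 ± 0.31 (95% interval -0.55 to 0.65) and 0.04 ± 0.32 (-0.59 to 0.67), so changes inside these intervals were not told from no change. Rrm2b, at 10.1 ± 3.29 and 7.29 ± 3.16 CPM in MC38 and 21.7 ± 2.35 and 19.5 ± 6.13 CPM in Panc02-SIY, differed by -0.32 ± 0.27 and -0.06 ± 0.26 on the log2 scale.

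**Figure D1:**
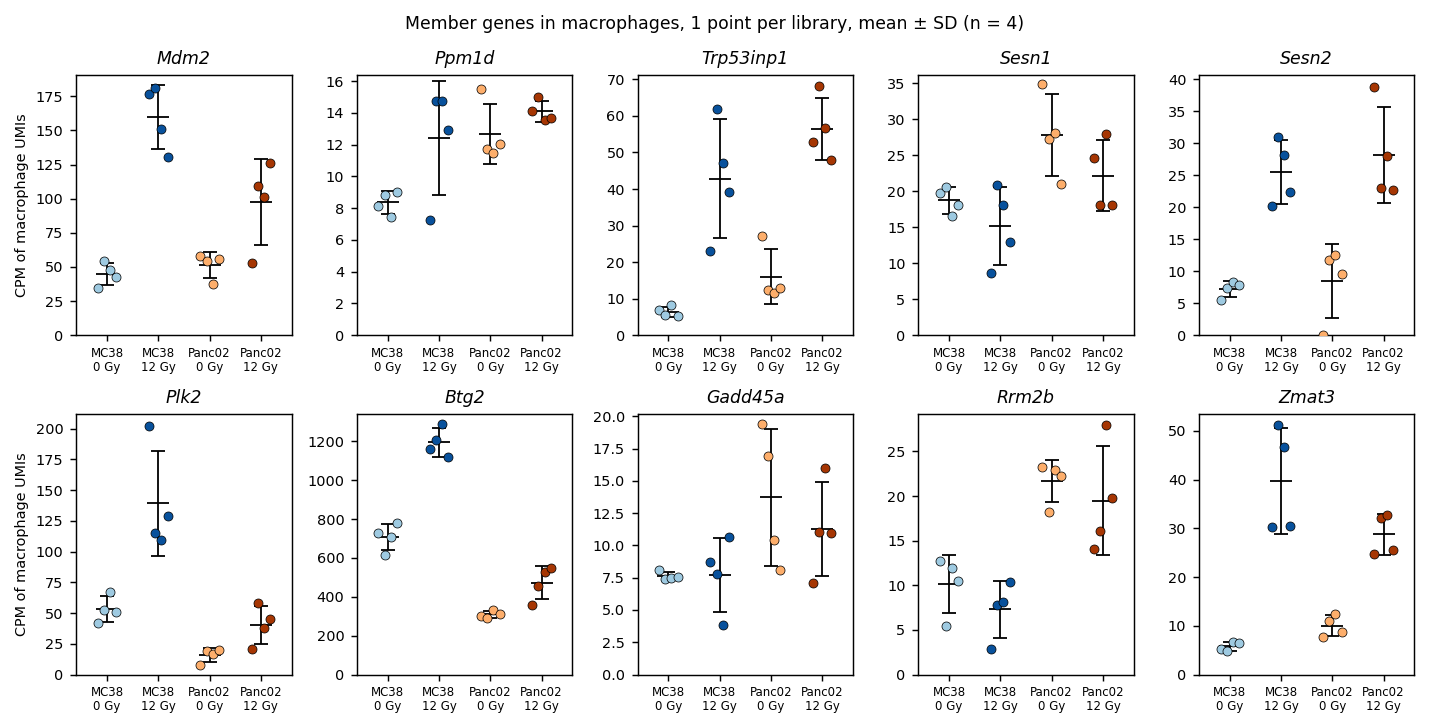
Level of each of the 10 genes in macrophages (CPM of macrophage UMIs, vertical axis from 0, a different scale in each panel) in untreated and irradiated MC38 and Panc02-SIY tumors; each point is 1 library and the bars are the mean ± SD of 4. Trp53inp1, Zmat3, Sesn2, Plk2 and Btg2 were higher in every irradiated than in every untreated library of both tumors, and irradiated Panc02-SIY replicate 1 is the low Mdm2 point at 52.9 CPM. The share of all genes that separate in this way is not given here.

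Markers of monocytes moved with these values inside the macrophage class. The summed level of the 6 monocyte markers was 1116 to 1362 CPM across the untreated and 1657 to 1931 CPM across the irradiated MC38 libraries, and 137 to 413 against 270.2 to 739.7 CPM in Panc02-SIY, with none of the 6 at 0 in any group. The 6 macrophage markers spanned 12769 to 14849 CPM untreated and 12802 to 16223 CPM irradiated in MC38, and 10021 to 13777 against 10749 to 14829 CPM in Panc02-SIY. Their part in the results was not tested. With all called barcodes kept the MC38 log2 differences were smaller, 1.305 for Mdm2, 2.06 for Trp53inp1, 2.02 for Zmat3, 1.36 for Sesn2, 0.90 for Plk2 and 0.55 for Btg2, all still called.

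Fewer of the 10 genes passed the test in monocytes than in macrophages, and these counts do not test a difference between the classes, which is given after them. In MC38 monocytes Mdm2, Trp53inp1 and Zmat3 were called as raised and none of the other 7 was called. Of all 9452 genes 0.264% were called, 0.233% as raised. Zmat3 passed the filter on low counts through irradiated libraries, where it was high, so its call is not taken as evidence of a rise. In Panc02-SIY monocytes none of the 10 was called by edgeR, where 4 of 9452 genes (0.0423%, or 0.0317% as raised) were called and 772 had an unadjusted p below 0.05. The class held 17 to 59 barcodes in the untreated and 62 to 223 in the irradiated Panc02-SIY libraries, and 22 to 51 and 18 to 105 in the MC38 libraries.

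Trp53inp1 was at 3.49, 4.31, 5.37 and 10.2 CPM in untreated MC38 monocytes and at 75.7, 41.3, 30.2 and 28.4 CPM after radiation. The untreated values rest on 1, 2, 4 and 6 UMIs. The groups were apart by 5.75-fold (log2 2.52 ± 0.41, edgeR adjusted p = 0.000849). In Panc02-SIY monocytes the same gene was at 37.2, 12.1, 27.1 and 17.8 CPM untreated and 23.0, 17.7, 22.2 and 15.9 CPM irradiated, with overlapping groups (log2 -0.27 ± 0.34, 95% interval -0.94 to 0.40). Zmat3 was at 6.98, 0, 1.34 and 3.42 CPM in untreated and 25.2, 16.9, 22.7 and 16.3 CPM in irradiated MC38 monocytes. These untreated values rest on 5 UMIs in all 4 libraries. The gene passed the filter on low counts through irradiated libraries, where it was high, so the test is given as a description only. The fitted log2 difference was 2.92 ± 0.60 (adjusted p = 0.0215). The call was lost without untreated MC38 replicate 3 (log2 2.62, adjusted p = 0.193) and with DESeq2 without independent filtering (2.96, adjusted p = 0.164).

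Mdm2 was at 73.3, 73.3, 71.2 and 58.1 CPM in untreated and 195, 154, 92.6 and 146 CPM in irradiated MC38 monocytes, without overlap (2.02-fold, log2 1.01 ± 0.23, adjusted p = 0.0603). With all called barcodes kept the value was log2 0.60 and not called (adjusted p = 0.726). The call was also lost without any one of irradiated MC38 replicates 1, 2 and 4 and untreated replicates 1, 3 and 4 (log2 0.91 to 1.03, adjusted p 0.138 to 0.287). In Panc02-SIY monocytes Mdm2 stood at 32.5, 56.4, 35.6 and 66.7 CPM untreated and 51.5, 61.4, 52.8 and 93.7 CPM irradiated, with overlap (log2 0.47 ± 0.26). Btg2 in Panc02-SIY monocytes was at 808 ± 87.3 CPM untreated and 808 ± 35.4 CPM irradiated (log2 0.00 ± 0.13, 95% interval -0.25 to 0.25). The summed macrophage markers inside this class ranged from 530.4 to 4502 CPM in untreated and 1170 to 2867 CPM in irradiated MC38 libraries, and their part was not tested.

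Whether macrophages and monocytes of the same libraries differed in their response was tested directly, with the library as a block. In Panc02-SIY tumors Trp53inp1 was the single gene of the 10 called: its response in macrophages exceeded that in monocytes by 2.11 ± 0.44 on the log2 scale (adjusted p = 0.0309), with 0.0793% of all 11356 genes called, 0.0616% in that direction. The call was lost without untreated Panc02-SIY replicate 3 (1.86, adjusted p = 0.266) or replicate 4 (2.21, adjusted p = 0.117), with a gate of 2 markers (1.39, adjusted p = 0.399) and after thinning (2.05, adjusted p = 0.584). For the other 9 genes a difference between the classes was not shown. For Btg2 the difference was 0.54 ± 0.15 (adjusted p = 0.260), and for Mdm2 0.56 ± 0.28 (adjusted p = 0.681). In MC38 tumors none of the 10 differed between the classes by edgeR (0.0704% of genes called, 0.044% as higher in macrophages, and 666 with an unadjusted p below 0.05); for Trp53inp1 the difference was 0.24 ± 0.54 (95% interval -0.81 to 1.302).

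**Figure D2:**
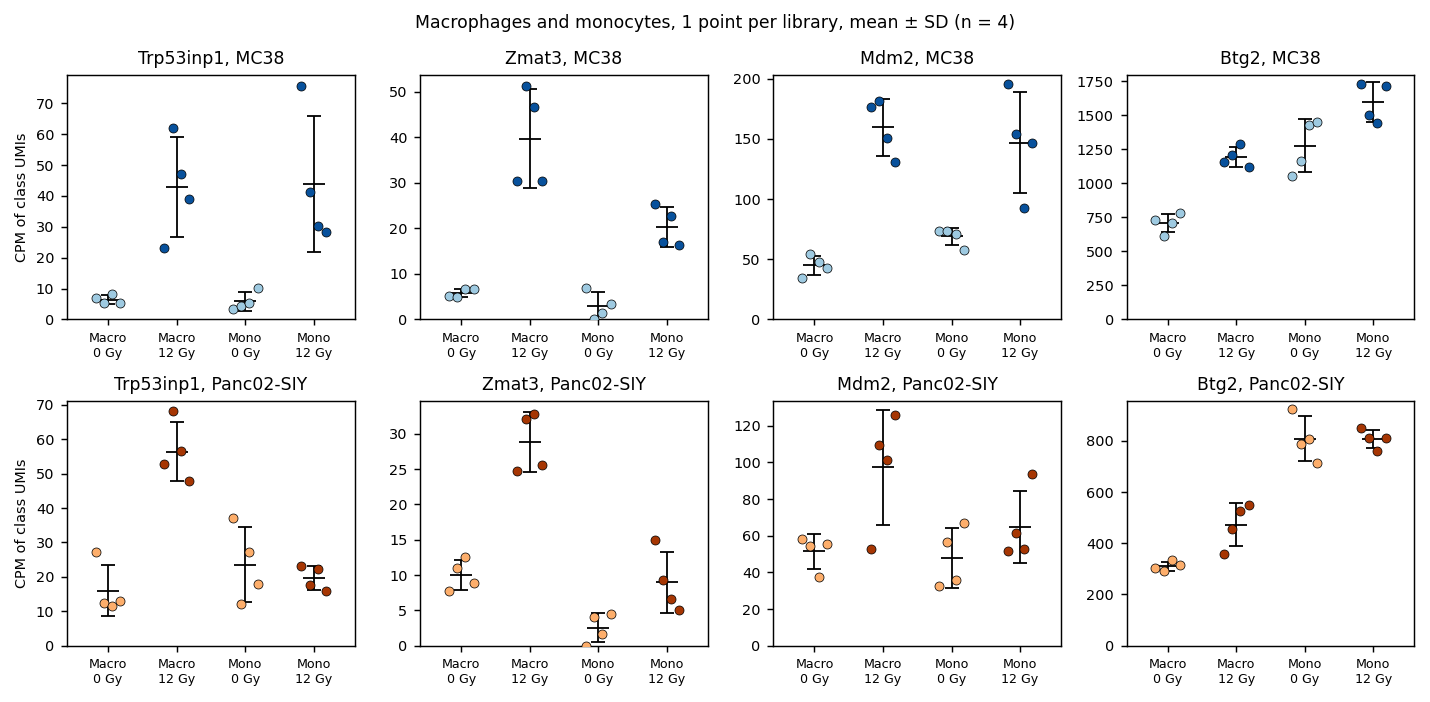
Levels of Trp53inp1, Zmat3, Mdm2 and Btg2 (CPM of class UMIs, vertical axes from 0) in macrophages and monocytes with 0 or 12 Gy, MC38 above and Panc02-SIY below; points are libraries and bars the mean ± SD of 4. Trp53inp1 rose in both classes of MC38 tumors, whereas in Panc02-SIY monocytes the irradiated libraries (15.9 to 23.0 CPM) lie within the untreated range (12.1 to 37.2 CPM).

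The response of each gene was also compared between the 2 tumors. In macrophages and in monocytes none of the 10, and no gene at all, passed this test by edgeR (0% called, with 603 and 492 genes at an unadjusted p below 0.05). In macrophages the MC38 response exceeded the Panc02-SIY response by 1.18 ± 0.33 for Zmat3, 0.80 ± 0.26 for Mdm2 and 0.71 ± 0.34 for Trp53inp1 on the log2 scale (adjusted p = 0.399, 0.693 and 0.945). With all called barcodes kept these values were 0.52, 0.26 and 0.02. In monocytes the difference for Trp53inp1 was 2.79 ± 0.56 (adjusted p = 0.107), just outside the threshold, with 1 to 6 UMIs in each untreated MC38 library. It passed the threshold without any one of irradiated MC38 replicates 1, 3 and 4, untreated MC38 replicate 4, irradiated Panc02-SIY replicate 3 and untreated Panc02-SIY replicate 2 (2.61 to 3.19, adjusted p 0.0480 to 0.0831).

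Summed over all CD45+ cells, 7 of the 10 rose in each tumor, with 9.29% of genes called in MC38 (5.57% as raised) and 12.5% in Panc02-SIY (6.57% as raised). In MC38 these were the 7 of the macrophages, and in Panc02-SIY Gadd45a (log2 0.53 ± 0.19, adjusted p = 0.0876) joined the 6. These sums also move with the share of each class, and fewer cells of a class and less RNA per cell cannot be told apart in them. Mdm2 was the single gene of the 10 whose response differed between the tumors in these sums (MC38 minus Panc02-SIY 0.92 ± 0.19, adjusted p = 0.0891, 0.145% of genes called, 0.0484% in that direction). With all called barcodes kept it was 0.47 (adjusted p = 0.174), no longer called, and leaving out any 1 library other than irradiated replicate 4 of either tumor and untreated Panc02-SIY replicates 3 and 4 also ended it (0.80 to 1.004, adjusted p 0.105 to 0.197).

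T cells were tested in the 8 Panc02-SIY libraries, which held 240 to 1402 T cell barcodes each. Of the 10 genes, 6 rose and none fell: Mdm2, Trp53inp1, Sesn2, Plk2, Btg2 and Zmat3. Of all 11983 genes 7.45% were called, 3.13% as raised, and the median log2 fold change of the 10 was 0.77 against 0.02 over all genes.

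Trp53inp1 in T cells was at 68.6, 42.1, 58.0 and 32.7 CPM untreated and 214, 149, 172 and 137 CPM irradiated, without overlap (3.38-fold, log2 1.76 ± 0.24, adjusted p = 0.00768). Zmat3 was at 15.7, 11.8, 17.9 and 10.2 CPM untreated and 61.3, 50.5, 45.5 and 36.8 CPM irradiated (3.51-fold, log2 1.81 ± 0.20, adjusted p = 0.000438). Mdm2 went from 56.1, 55.8, 52.4 and 55.3 CPM to 100.2, 85.8, 88.3 and 107 CPM (1.73-fold, log2 0.79 ± 0.10, adjusted p = 0.000841). None of these 3 genes had an irradiated library inside the untreated range.

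Sesn2, at 6.73, 3.80, 5.06 and 4.92 CPM untreated, reached 22.3, 13.1, 11.9 and 20.2 CPM (3.31-fold, log2 1.73 ± 0.25, adjusted p = 0.00223). Plk2 was at 10.6, 6.61, 5.42 and 4.99 CPM untreated and 16.6, 14.0, 19.7 and 23.0 CPM irradiated (2.84-fold, log2 1.505 ± 0.24, adjusted p = 0.00599). Both kept the groups apart. Btg2 changed least of the 6 called genes, from 431, 333, 363 and 366 CPM to 504, 494, 506 and 463 CPM (1.32-fold, log2 0.40 ± 0.10, adjusted p = 0.0430). Its call was lost without any one of irradiated replicates 2 and 3 and untreated replicates 2 and 3 (log2 0.34 to 0.39, adjusted p 0.102 to 0.157).

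The 4 remaining genes were not called in T cells. Gadd45a was at 8.01, 5.91, 5.97 and 5.83 CPM untreated and 19.2, 7.61, 10.98 and 8.24 CPM irradiated, with overlap through untreated replicate 1 (log2 0.75 ± 0.27, adjusted p = 0.131). It passed the test without that library (0.82, adjusted p = 0.0954) or without irradiated replicate 4 (0.89, adjusted p = 0.0931). Ppm1d (0.07 ± 0.16), Sesn1 (0.31 ± 0.20) and Rrm2b (0.18 ± 0.13) stayed within the spread between libraries. In these T cells the 6 T cell markers summed to 5689 to 6280 CPM untreated and 4888 to 6023 CPM irradiated. The 6 markers of mature cDCs summed to 44.3 to 76.9 and 93.8 to 147 CPM, with none at 0, and their part in the results was not tested.

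Within the T cells, CD8 T cells (116 to 1234 barcodes per library) showed the same 6 genes called and no other, with 7.13% of genes called, 2.67% as raised. Their log2 fold changes were 1.86 ± 0.16 for Trp53inp1, 1.73 ± 0.19 for Zmat3, 1.44 ± 0.24 for Sesn2, 1.35 ± 0.26 for Plk2, 0.74 ± 0.11 for Mdm2 and 0.39 ± 0.11 for Btg2. Unlike in all T cells, the groups overlapped for Plk2 (irradiated replicate 1 at 8.24 CPM, untreated replicate 1 at 8.98). They also overlapped for Btg2 (irradiated replicate 4 at 420 CPM, untreated replicate 1 at 443). Gadd45a, not called, did not overlap in CD8 T cells. In conventional CD4 T cells, with 29 to 73 barcodes per library, Trp53inp1 alone was called (log2 1.29 ± 0.22, adjusted p = 0.00405, 0.467% of genes called), while Sesn1 and Gadd45a were too low to test. Zmat3 there had log2 1.45 ± 0.40 (adjusted p = 0.159) and Sesn2 1.82 ± 0.56 (adjusted p = 0.318). Regulatory T cells held 7 to 44 barcodes per library and were not tested. Their Trp53inp1 level was 195 ± 85.0 CPM untreated and 389 ± 75.2 CPM irradiated, and their Mdm2 level 73.0 ± 28.8 and 142 ± 23.6 CPM (mean ± SD, n = 4).

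In NK cells of the same libraries, with 107 to 341 barcodes per library, none of the 10 was called by edgeR. Of 9747 genes 2.09% were called, 0.913% as raised, and 1144 had an unadjusted p below 0.05, so other genes did pass in this class. The NK cell sums held 618090 to 1470148 UMIs per library, against 1473104 to 14702820 for T cells. These counts do not test a difference between the classes, which is given after them. Trp53inp1 was at 57.0, 64.9, 91.8 and 64.5 CPM untreated and 92.0, 85.1, 79.6 and 92.2 CPM irradiated, with overlap (log2 0.32 ± 0.15, 95% interval 0.02 to 0.62, adjusted p = 0.417). Zmat3 was at 13.9, 26.0, 19.5 and 10.4 CPM untreated and 21.9, 18.2, 21.9 and 22.7 CPM irradiated, also overlapping (0.34 ± 0.27, -0.20 to 0.88). Mdm2, at 64.6, 63.3, 68.9 and 53.1 CPM against 58.5, 82.5, 83.3 and 97.7 CPM, had log2 0.39 ± 0.16 (adjusted p = 0.308). Plk2 came nearest to the threshold, with 10.1, 6.49, 17.2 and 17.1 CPM against 16.7, 17.4, 39.4 and 26.8 CPM (log2 0.94 ± 0.31, adjusted p = 0.161).

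The difference between the responses of T cells and NK cells was tested with the library as a block. It was called for 2 of the 10 genes, with 1.33% of all 11010 genes called, 0.599% as stronger in T cells. The response in T cells exceeded that in NK cells by 1.46 ± 0.23 for Trp53inp1 (adjusted p = 0.00616) and by 1.45 ± 0.31 for Zmat3 (adjusted p = 0.0132) on the log2 scale. The Zmat3 call was lost without untreated Panc02-SIY replicate 2 (1.17, adjusted p = 0.113), with a gate of 2 markers (1.14, adjusted p = 0.296) and with DESeq2 without independent filtering (1.397, adjusted p = 0.161). For Sesn2 the difference was 1.45 ± 0.45 (adjusted p = 0.126) and for Mdm2 0.41 ± 0.17 (adjusted p = 0.307), neither called. For Plk2 (0.60 ± 0.38) and Btg2 (0.23 ± 0.10) a difference between the classes was not shown. The 6 T cell markers summed to 734 to 1018 CPM in untreated and 719 to 915 CPM in irradiated NK cells, with none at 0, and their part in the NK values was not tested.

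**Figure D3:**
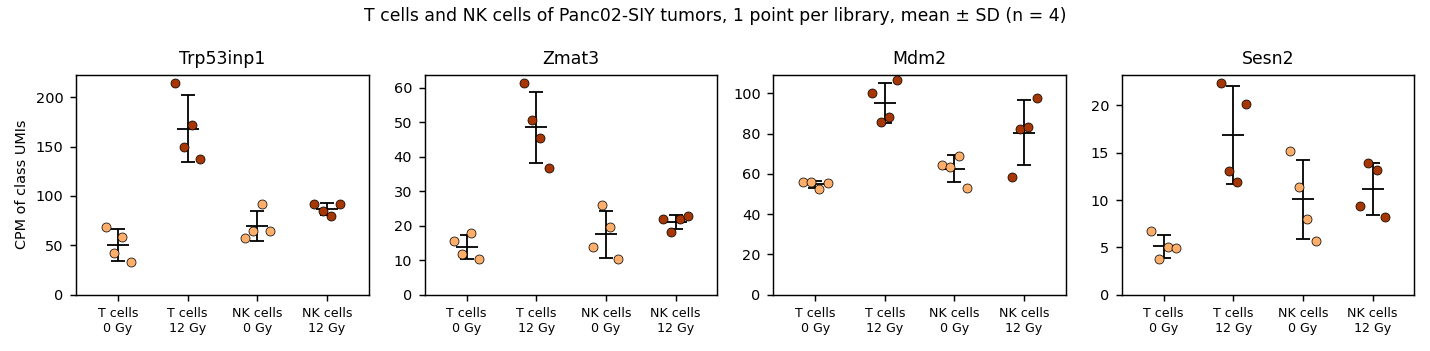
Levels of Trp53inp1, Zmat3, Mdm2 and Sesn2 (CPM of class UMIs, vertical axes from 0) in T cells and NK cells of Panc02-SIY tumors with 0 or 12 Gy; points are libraries and bars the mean ± SD of 4. In T cells all 4 irradiated libraries lie above all 4 untreated ones for each gene, and in NK cells the groups overlap for each gene. This contrast does not test a difference between the classes. The direct test was called for Trp53inp1 and Zmat3 and not for Mdm2 and Sesn2.

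Neutrophils and cDCs of Panc02-SIY tumors gave no call among the members by edgeR. In neutrophils 8 of the 10 could be tested, Sesn1 and Zmat3 being too low, and 2 of 7386 genes (0.0271%) were called, with 408 at an unadjusted p below 0.05. Mdm2 in neutrophils was at 76.1, 91.1, 91.4 and 78.7 CPM untreated and 106, 122, 106 and 97.9 CPM irradiated. These groups did not overlap, yet the difference of log2 0.36 ± 0.19 was not called (adjusted p = 0.916).

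In cDCs 1 of 8678 genes (0.0115%) was called, with 549 at an unadjusted p below 0.05. Sesn2 was at 27.0, 12.8, 3.26 and 7.67 CPM untreated and 84.6, 55.0, 58.5 and 42.4 CPM irradiated, without overlap (log2 2.37 ± 0.45, adjusted p = 0.215). Trp53inp1 in cDCs was at 22.5, 6.41, 19.5 and 6.97 CPM untreated and 84.6, 32.6, 40.3 and 46.8 CPM irradiated, also without overlap (log2 2.09 ± 0.47, adjusted p = 0.269). Both passed the test when untreated Panc02-SIY replicate 1 was left out, the library with the highest untreated level of each. Of 8 libraries left out in turn, this was the 1 that changed the count of calls in neutrophils and cDCs. The cDC class held 14 to 72 barcodes per Panc02-SIY library, and its 6 mature cDC markers summed to 251 to 5226 CPM untreated and 1968 to 5096 CPM irradiated; their part was not tested.

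**Figure D4:**
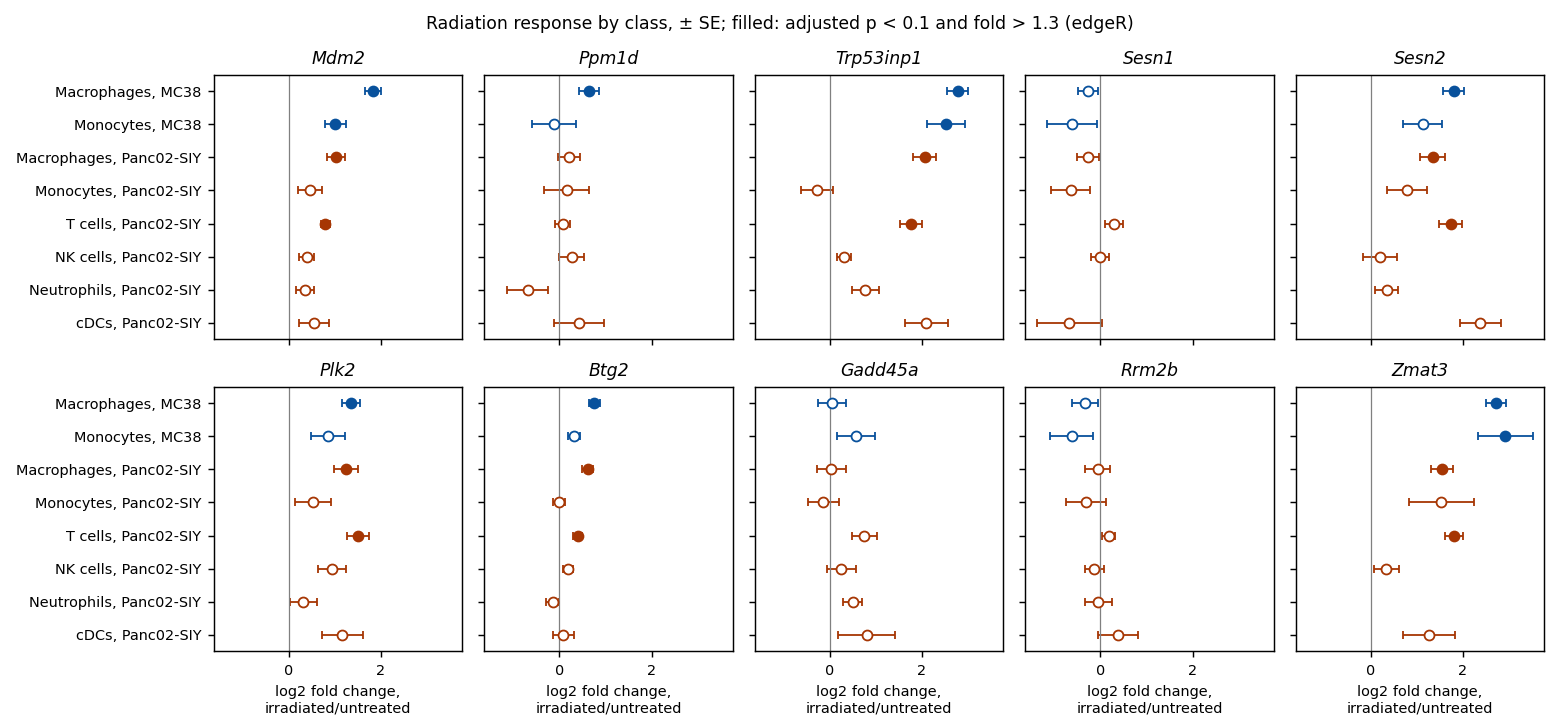
Log2 fold change after radiation (horizontal axis, ± SE) of each gene in the 8 class and tumor combinations that were tested, MC38 in blue and Panc02-SIY in orange; filled points were called by edgeR, and points too low to test are missing. Mdm2, Trp53inp1 and Zmat3 are filled in 4 combinations each, Sesn2, Plk2 and Btg2 in 3, Ppm1d in 1, and Sesn1, Gadd45a and Rrm2b in none. The Zmat3 point of MC38 monocytes belongs to a gene that passed the filter there through irradiated libraries, where it was high.

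Lymphoid cells (T, NK and B) were also compared as a whole with phagocytes (monocytes and macrophages). In Panc02-SIY tumors the single gene of the 10 whose change differed between these sums was Sesn1, higher in lymphoid cells by 1.04 ± 0.28 on the log2 scale (adjusted p = 0.0739, 0.85% of 12938 genes called, 0.255% in that direction). These sums also move with the share of each class. From untreated to irradiated, NK cells went from 582 to 1049 barcodes and T cells from 3244 to 2689. Monocytes went from 141 to 560 and macrophages from 1541 to 909. The part of these shares in the Sesn1 value was not tested. The call was lost without any one of irradiated replicates 1, 2 and 3 and untreated replicates 2 and 4 (1.00 to 1.19, adjusted p 0.117 to 0.295). In MC38 tumors, where the lymphoid sums are small, 0% of genes were called by edgeR and 619 had an unadjusted p below 0.05; for Btg2 the difference was -0.73 ± 0.23 (adjusted p = 0.601).

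The untreated levels of the 10 genes differed between classes of Panc02-SIY tumors, each gene with its own order. Btg2 was highest in neutrophils at 3209 ± 479 CPM, followed by monocytes at 808 ± 87.3 and NK cells at 629 ± 50.6 CPM. Its lowest mean was in macrophages at 310 ± 17.7 CPM. The means of cDCs (444 ± 121), T cells (373 ± 41.3) and B cells (318 ± 105) lay between, and their ranges overlapped. The macrophage range also overlapped those of T cells and B cells, so no class was set apart as lowest. Mdm2 ranged from 43.8 ± 7.26 CPM in cDCs to 84.4 ± 8.07 CPM in neutrophils, and only the neutrophils lay apart from the next class, NK cells at 62.5 ± 6.70 CPM.

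Trp53inp1 was highest on average in B cells (160 ± 194 CPM, from 15.5 to 428 CPM across libraries), then neutrophils (70.8 ± 34.2), NK cells (69.6 ± 15.3) and T cells (50.4 ± 16.05). It was lower in monocytes (23.5 ± 10.99), macrophages (11.5 to 27.2 CPM) and cDCs (13.9 ± 8.37), and the ranges of each pair of neighbours in this order overlapped. Sesn1 was at 39.5 ± 10.2 CPM in NK cells, 27.8 ± 5.70 in macrophages and 11.04 ± 2.28 in T cells. Plk2 was at 73.5 ± 20.8 CPM in neutrophils and 6.90 ± 2.54 CPM in T cells. These are levels of each gene across classes, scaled within each class, and were not tested. The B cell levels come from 8 to 22 barcodes per library and, unlike the others, had no TMM scaling.

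Untreated macrophages of the 2 tumors differed in 6 of the 10 genes, in a comparison where 41.5% of all 11473 genes were called, 20.6% as higher in MC38. Plk2 was higher in MC38, at 53.2 ± 10.5 against 15.96 ± 5.65 CPM (log2 1.53 ± 0.23, adjusted p = 2.66e-05), and so was Btg2, at 707 ± 68.2 against 310 ± 17.7 CPM (1.19 ± 0.12, adjusted p = 3.37e-08). Trp53inp1 (-1.05 ± 0.28), Rrm2b (-1.03 ± 0.25), Zmat3 (-0.72 ± 0.26) and Ppm1d (-0.53 ± 0.22, adjusted p = 0.0685) were lower in MC38. The Ppm1d call was lost in 20 of 31 alternatives and the Zmat3 call in 5 of 31, among them keeping all called barcodes for Zmat3 (-0.47, adjusted p = 0.127). With all called barcodes kept Trp53inp1 was still called at -0.60. Leaving out any one of the 8 untreated libraries, or replicate 4 of either irradiated group, ended the Ppm1d call (-0.44 to -0.54, adjusted p 0.104 to 0.190). In untreated monocytes, with 25.1% of 9452 genes called, Btg2 was higher in MC38 (0.67 ± 0.13) and Trp53inp1 (-1.87 ± 0.48) and Gadd45a (-1.20 ± 0.43) lower. Trp53inp1 had 1 to 6 UMIs in each of these MC38 libraries. The Gadd45a call was lost without untreated MC38 replicate 2 (-0.95, adjusted p = 0.132) or untreated Panc02-SIY replicates 1 (-1.06, adjusted p = 0.106) or 2 (-1.003, adjusted p = 0.135). Over all CD45+ cells 2 of the 10 were higher and 5 lower in MC38, with 57.8% of genes called and 26.7% as higher. The tumor line and the handling of its libraries, including the shared barcodes, cannot be told apart.

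Other genes of the pathway were read from lists, which were chosen with earlier results of these data known. Their counts are therefore a description and not independent support. Of 30 further p53 targets, 29 could be tested in macrophages, where 19 rose in MC38 and 9 in Panc02-SIY and none fell (medians 1.15 and 0.73 on the log2 scale, against -0.01 and 0.01 over all genes). In T cells 19 of 28 rose, in NK cells 7 of 24, in MC38 monocytes 4 of 23 and in Panc02-SIY monocytes 0 of 23, read against the shares of all genes called given above. Cdkn1a, the cell cycle inhibitor p21, was raised in 6 of the 8 class comparisons, NK cells included, and Ccng1, Phlda3 and Bax in 5 each. In T cells Cdkn1a rose by log2 3.53 ± 0.19 and Ccng1, a regulator in the same feedback circuit, by 2.24 ± 0.10.

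Among 10 genes that control p53, Trp53 itself was called once, lower in MC38 macrophages (log2 -0.43 ± 0.14, adjusted p = 0.0640). Mdm4, which binds and restrains p53 beside Mdm2, rose in MC38 macrophages (1.27 ± 0.17) and Panc02-SIY T cells, and Rps27l rose in macrophages of both tumors and in T cells. The checkpoint kinase gene Chek1 fell in MC38 macrophages and in Panc02-SIY T cells. Of 16 genes listed as related to the members, 4 rose and 4 fell in MC38 macrophages. Rrm1 (-1.51 ± 0.20) and Rrm2 (-2.002 ± 0.31), which encode other subunits of ribonucleotide reductase, were among those that fell, while Rrm2b was not called. Btg1, a relative of Btg2, rose in macrophages of both tumors and in T cells.

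Lists of other stress responses were counted beside them, because Btg2 and Plk2 are also known as early response genes and sestrins as stress genes. Of 13 immediate early and dissociation genes, 3 rose in MC38 macrophages (Dusp1, Zfp36 and Junb), 0 in Panc02-SIY macrophages and 3 in Panc02-SIY T cells (Egr1, Ier3 and Jun), and none fell in these classes. Of all genes tested there, 4.38%, 1.03% and 3.13% were called as raised, in that order. Of 10 integrated stress response genes, 2 of the 8 tested rose in MC38 macrophages (Ddit4 and Ddit3) and 0 of 8 in Panc02-SIY macrophages, and in T cells Ddit4 rose and Psat1 fell. Ddit4 was also on the list of further p53 targets and is counted in both. The zero counts are from edgeR, with 1348 of all genes at an unadjusted p below 0.05 in Panc02-SIY macrophages. Their part in the changes of Btg2, Plk2 and Sesn2 was not tested.

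The genes whose pattern was most like that of each member were found by Pearson correlation of log2 levels over the 28 class and group means, among 8105 genes. These means share libraries and differ in depth, so the values are a description. They include classes too few to test, such as untreated MC38 B cells (3 barcodes) and untreated MC38 neutrophils (6 barcodes). A few UMIs set the levels there. Zmat3 was most like Phlda3 (r = 0.84), Btg2 most like Card19 (0.92) and then Junb (0.89) and Ier2 (0.87), and Sesn2 most like Ogfrl1 (0.80) and Egr1 (0.78). Mdm2 was most like Rap1b (0.81), Trp53inp1 most like Sirt1 (0.81), Plk2 most like Cfap43 (0.83) and Ppm1d most like Atxn7 (0.89).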

How the data were processed

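Single-cell 3′ libraries of sorted live CD45+ cells from 16 tumor samples were used. The authors deposited UMI counts per gene and called barcode, made per the labels with bcl2fastq 2.20.0 and Cell Ranger 3.1.0 on build mm10. The study's methods name fewer animals per group than the 4 in the GEO text. Each barcode shared by libraries of a tumor line was kept in its richest library. Barcodes were gated by at least 3 of 6 markers per class with a lead of 1 over the next class (mixed barcodes, 1807 of them, and those with too few markers, 4279, were left out; no doublet caller was run), and no further cell filter was applied in the main analysis. Counts were summed per library and class and, where every library held at least 10 barcodes, tested with edgeR 4.0.16 (R 4.3.3; low genes removed by filterByExpr set to a count of 3 and total of 15, TMM, robust quasi-likelihood F test, two-sided). T cells, NK cells, neutrophils and cDCs were fitted on the 8 Panc02-SIY libraries alone, a choice made after seeing the data. Scripts were tested on simulated data. Totals per library ran from 1385711 to 43708746 UMIs, and limits for counts of 0 (3 UMIs) cover counting error only. All member genes are named, and from other lists only genes with their counts. The members and lists were chosen with earlier results of these data known. Alternatives were DESeq2 1.42.0 (with and without independent filtering), other scalings, filters, gates and thresholds, thinning, a replicate block and leaving out each library.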

Additional observations from a re-analysis of the deposited data

Results flagged for a closer look

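Across macrophages, monocytes, T cells, NK cells and cDCs, 140 sets of 4 libraries were examined for a library far from the others, and 7 were found, about what chance gives (1 in 20). Untreated Panc02-SIY replicate 1, which had the fewest macrophage UMIs, was the highest of 4 for Ppm1d in macrophages (15.5 CPM, the others 11.46 to 12.1), for Trp53inp1 in macrophages (27.2 CPM, the others 11.46 to 13.0) and for Gadd45a in T cells (8.01 CPM, the others 5.83 to 5.97). In monocytes Gadd45a was at 0 CPM in irradiated MC38 replicate 1 (the others 18.8 to 20.8), where 163682 UMIs allow up to 18.3 CPM, and Mdm2 was lowest in untreated MC38 replicate 4 (58.1 CPM, the others 71.2 to 73.3). In cDCs Ppm1d was highest in irradiated Panc02-SIY replicate 1 (50.8 CPM, the others 9.72 to 16.3) and Sesn1 was at 0 CPM in irradiated Panc02-SIY replicate 2 (the others 5.64 to 6.18).

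The differences of responses listed next passed their own test. They are Mdm2 between MC38 and Panc02-SIY over all CD45+ cells (0.92 on the log2 scale), Sesn1 between lymphoid cells and phagocytes (1.04), Trp53inp1 (1.46) and Zmat3 (1.45) between T cells and NK cells, and Trp53inp1 between macrophages and monocytes (2.11), the last 4 in Panc02-SIY tumors. The Mdm2 and Sesn1 values come from sums that also move with the share of each class. Trp53inp1 between T cells and NK cells kept its call in the 20 alternatives that gave it an adjusted p. DESeq2 with its default filtering gave it none (without that filtering it was called), and no replicate block was fitted there.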

How the results depend on the processing

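Counts of member calls over classes cover macrophages and monocytes, the classes fitted on all 16 libraries. They were 10 in MC38 and 6 in Panc02-SIY, read against the shares of all genes called in each class given above. The MC38 count includes Zmat3 in monocytes, which passed the filter through irradiated libraries, where it was high. In Panc02-SIY T cells, fitted on 8 libraries and counted apart, 6 were called. The shares given above belong to the main fit. Shares of all genes called under the alternatives are not given here, so a changed count below is not a result about the members. Thinning each class to its lowest library total gave 6 in MC38 and 2 in Panc02-SIY (Trp53inp1 and Plk2), and 0 for lymphoid against phagocyte cells and 0 for macrophages against monocytes in Panc02-SIY (each 1 in the report). DESeq2 with its default filtering left members without an adjusted p, and so gave no count, for Panc02-SIY macrophages and monocytes, NK cells, neutrophils and cDCs, and the differences between classes other than lymphoid against phagocyte cells in MC38. DESeq2 without independent filtering, added after seeing the data, was used there. Neutrophils and cDCs gave 1 with it (Sesn2) and 2 with no filter on low counts, and NK cells 1 with no filter. Lymphoid against phagocyte cells gave 0 with an adjusted p below 0.05 and with DESeq2 without independent filtering. Macrophages against monocytes in Panc02-SIY gave 2 with all called barcodes, a minimum count of 10 or RLE size factors, and 0 with a gate of 2 markers. MC38 against Panc02-SIY gave 1 (Trp53inp1 in monocytes) with DESeq2 with or without that filtering, no filter or RLE size factors. T cells against NK cells gave 1 (Trp53inp1) with DESeq2 without independent filtering and with a gate of 2 markers. Leaving out 1 library gave 7 to 10 calls in MC38 and 5 to 6 in Panc02-SIY, 6 to 7 over all CD45+ cells of each tumor, 5 to 7 in T cells, 0 to 0 in NK cells, 0 to 2 in neutrophils and cDCs, 0 to 1 for the tumors' responses and for lymphoid against phagocyte cells in Panc02-SIY, 0 to 2 for macrophages against monocytes there, 1 to 2 for T against NK cells, and 7 to 11 for the untreated tumors.

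Members not called changed sign in macrophages. Gadd45a in MC38 was -0.091 (gate of 2), -0.046 (library size alone) and -0.054 (thinned), and -0.31 to 0.31 leaving out 1 library; in Panc02-SIY it was -0.17 (gate of 2), -0.67 (gate of 4), -0.79 (thinned) and -0.031 (DESeq2 without independent filtering), and -0.32 to 0.29. Thinning gave -0.40 for Ppm1d and 0.074 for Sesn1 in Panc02-SIY and 0.54 for Rrm2b in MC38, and a gate of 2 gave 0.14 for Rrm2b in Panc02-SIY. Leaving out 1 library gave -0.27 to 0.021 for Rrm2b in Panc02-SIY macrophages and -0.0099 to 0.18 for Ppm1d in T cells. The causes were not tested.

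With the replicate number as a block, NK cells gave 1 call (Plk2), the tumors' responses 1, T cells 7 (Gadd45a added), MC38 9, Panc02-SIY 6 and the untreated tumors 9. The shares of all genes called with the block are not given here. In MC38 the deviations of same-numbered libraries correlated from -0.039 to 0.081, with 0 of 8 pairs above 0.1 and 1 of 8 best matched by their own number. In Panc02-SIY they correlated from -0.16 to 0.75, with 8 of 12 above 0.1 and 7 of 12 best matched by their own number, in macrophages, T cells and all CD45+ cells. Since not every pair was above 0.1, the numbers were not taken to pair the libraries. A gate of 4 markers left monocytes under 10 barcodes in a library, so counts over classes were not computed there.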
